A study of Mus musculus with 2 samples.

Results

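Myelin and Schwann cell genes were compared between newborn mouse heads of 2 genotypes, on 1 expression array per genotype. The set holds 8 genes, Mbp, Cnp, Mag, Mog, Mobp, Pmp22, Prx and Sox10, and its members were all probe sets for which the platform annotation names one of these symbols alone. This gave 22 of the 45101 probe sets on the array, for 7 of the 8 genes. No probe set was named Prx by that rule, so this gene of peripheral myelin has no value here. Both genotypes came from carriers of T11H, a reciprocal translocation between Chr 2 and Chr 9. The MatDp(dist2) head carried a maternal duplication of Chr 2 distal of the breakpoint and with it a paternal duplication of distal Chr 9. The PatDp(dist2) head carried the paternal duplication of distal Chr 2 and the maternal duplication of distal Chr 9. By these labels the heads differed in the parental origin of both regions. Copy number was not analysed here. The tissue was the whole head, so brain, cranial nerves and ganglia, muscle, skin and gland were measured together, and more cells of a type cannot be told apart from more RNA per cell. Neither the sex nor the number of the animals is given in the sources used here.

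Myelin is the stack of membrane that oligodendrocytes wrap around axons in the brain and Schwann cells wrap around axons in peripheral nerves. Some of its proteins serve both kinds, such as Mbp, which holds the inner faces of the membrane together, and Cnp, an enzyme of the cytoplasmic channels of the sheath. Others belong to the central sheath, such as Mog and Mobp, or mainly to the peripheral one, such as Pmp22 and Prx. Sox10 is the transcription factor that both lineages need, and melanocytes make it too. In the mouse, peripheral nerves begin to myelinate around birth, while most of the forebrain follows later.

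The RefSeq promoter table (GRCm38.p6) held windows for 6 of the 8 genes, Cnp, Mag, Mog, Mobp, Pmp22 and Prx, and none for Mbp and Sox10. They are shown for 4 of these genes, to set 3 members with a measured signal (Cnp, Mag and Pmp22) beside 1 that stayed dim in both heads (Mobp). Each is the 250 bases before the gene's outermost listed start, with capitals marking ACAAAG, a core of the SOX family consensus, or its reverse complement CTTTGT. Cnp lies at chr11:100574689-100574938 on the plus strand, Mag at chr7:30914923-30915172 on the minus strand, Mobp at chr9:120149492-120149741 on the plus strand and Pmp22 at chr11:63128732-63128981 on the plus strand.
Cnp: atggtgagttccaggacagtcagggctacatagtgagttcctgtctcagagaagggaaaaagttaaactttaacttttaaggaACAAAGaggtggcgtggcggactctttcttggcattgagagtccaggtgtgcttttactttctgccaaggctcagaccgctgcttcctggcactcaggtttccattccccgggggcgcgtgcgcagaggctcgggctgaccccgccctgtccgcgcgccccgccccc
Mag: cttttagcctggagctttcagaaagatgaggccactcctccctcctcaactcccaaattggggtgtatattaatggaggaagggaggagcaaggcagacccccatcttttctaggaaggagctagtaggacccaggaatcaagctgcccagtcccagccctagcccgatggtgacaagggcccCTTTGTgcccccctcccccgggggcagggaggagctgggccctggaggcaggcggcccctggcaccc
Mobp: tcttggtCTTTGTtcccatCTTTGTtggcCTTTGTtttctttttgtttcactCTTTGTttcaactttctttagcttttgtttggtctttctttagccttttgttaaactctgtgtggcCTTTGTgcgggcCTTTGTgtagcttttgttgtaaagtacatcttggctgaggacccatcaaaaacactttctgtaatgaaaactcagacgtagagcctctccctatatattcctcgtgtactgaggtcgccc
Pmp22: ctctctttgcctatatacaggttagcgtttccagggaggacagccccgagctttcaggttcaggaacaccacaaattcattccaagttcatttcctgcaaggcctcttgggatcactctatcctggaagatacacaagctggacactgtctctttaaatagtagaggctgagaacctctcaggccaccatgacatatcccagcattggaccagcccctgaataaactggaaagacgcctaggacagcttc
The ACAAAG letters, searched on both strands, occurred 1 time in the Cnp window, 1 time in the Mag window and 6 times in the Mobp window, and did not occur in those of Pmp22, Mog and Prx. Over all 32851 windows of that length, 16.5% held them, and the Mobp window alone held 6 or more. A related core, AACAAT or ATTGTT, was in 9.42% of all windows and in 0 of the 6 member windows. Mag has 3 listed windows and Pmp22 has 4, and the member counts cover only the outermost window of each gene. These are matches of letters, not measured binding sites.

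On its brightest probe set, each of Mbp and Cnp had a signal at least 2-fold higher in PatDp(dist2), and Mag and Pmp22 leaned the same way by less than 2-fold. Both Mbp and Cnp also had 1 probe set that pointed to MatDp(dist2). Signals are the deposited values on a linear scale, and a floor of 187, the middle of the 2 arrays' median signals, separates probe sets called measured from those too dim to compare. Of the 22 probe sets, 14 reached the floor on at least 1 array, 12 of them on both, and the other 8 lay below it in both heads. Of the 14, 6 were at least 2-fold higher in PatDp(dist2) and 0 in MatDp(dist2). Among all probe sets measured in this way, 2.82% were at least 2-fold higher in PatDp(dist2) and 4.15% in MatDp(dist2). The 6 probe sets belong to only 2 genes, 5 to Mbp and 1 to Cnp, so they are not separate observations. At a 3-fold threshold 2 remained, both of Mbp. The median log2 ratio of the MatDp(dist2) over the PatDp(dist2) signal was -0.63 over the 14 member probe sets and 0.06 over all 24222 measured probe sets. With 1 array per genotype there is no spread between animals to set any of these differences against, and no test was run.

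**Figure D1:**
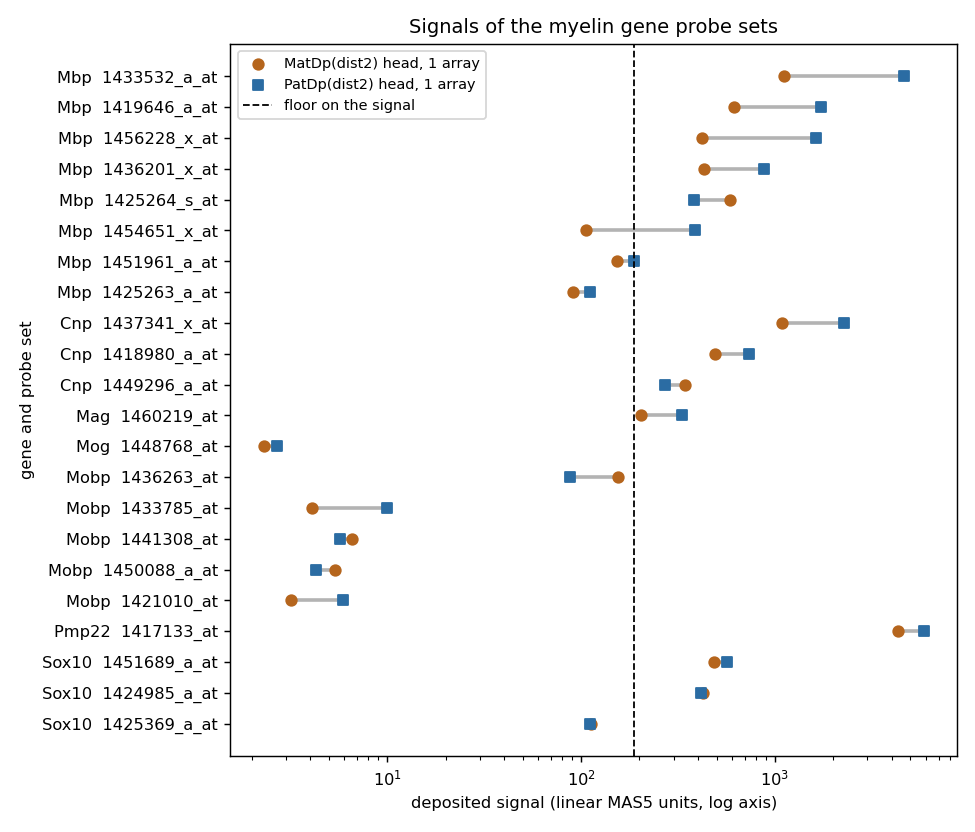
Deposited signal (linear MAS5 units, drawn on a log axis) of each of the 22 probe sets in MatDp(dist2) (circles) and PatDp(dist2) (squares), 1 array each, with the floor of 187 as a dashed line. The bright Mbp and Cnp probe sets have their squares to the right, while Mog and all Mobp probe sets lie left of the floor in both heads.

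Mbp, myelin basic protein, had 8 probe sets that did not give one answer. The brightest, 1433532_a_at, gave 1119.8 in MatDp(dist2) and 4621 in PatDp(dist2), a 4.13-fold difference. Probe set 1456228_x_at had 419 and 1637, which is 3.91-fold. Probe set 1419646_a_at had 613 and 1737.5, or 2.83-fold. These 3 all put PatDp(dist2) higher. Probe set 1436201_x_at passed 2-fold only narrowly, with 432 and 873, or 2.02-fold. Probe set 1454651_x_at had 107, below the floor, and 387, at least 2.07-fold, a bound that cannot be ranked among the folds above.

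The remaining Mbp probe sets did not share that difference. Probe set 1425264_s_at went the other way, with 586 in MatDp(dist2) and 382.5 in PatDp(dist2), 1.53-fold higher in the former. Probe set 1451961_a_at had 154 and 187.7, the second just at the floor, and 1425263_a_at had 90.4 and 111.8, both below it. The Mbp gene also gives rise to golli transcripts, which start farther upstream, share some exons with the classic myelin forms and are made in neurons and immune cells as well. The transcripts that each of these probe sets detects were not analysed here. In Affymetrix naming, the ending s_at marks probes shared by transcripts of more than one gene, x_at marks probes that may also bind other sequences, and a_at marks probes shared by transcripts of one gene.

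The spread among the Mbp probe sets was wide for a single gene. From lowest to highest, their log2 ratios covered 2.66. Among the 1940 genes with at least 3 measured probe sets the median of that range was 0.55, and 7 genes, Mbp included, had a range at least as wide as that of Mbp, or 0.361%. Having measured probe sets in both directions was common, at 54.8% of those genes. The range grows with the number of probe sets, and among the 101 genes with at least 6 measured ones the median was 0.70 and Mbp had the widest.

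**Figure D2:**
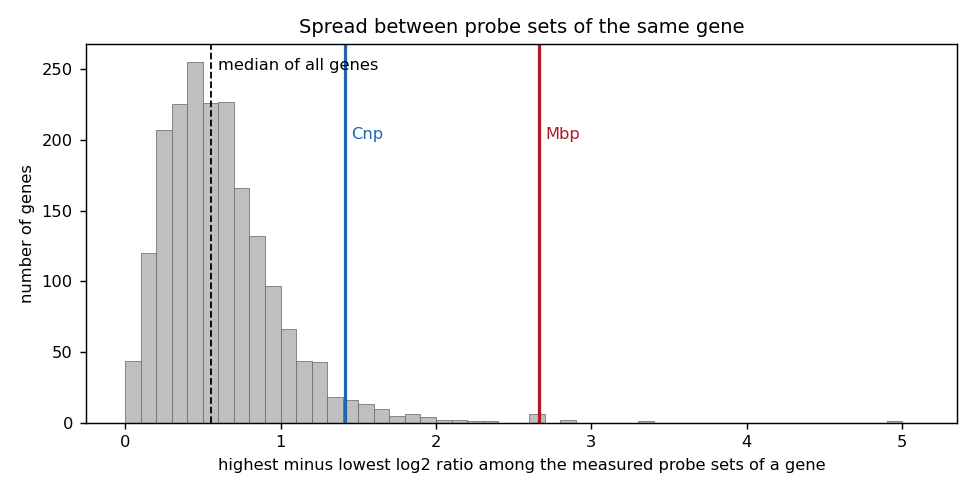
Histogram of the highest minus the lowest log2 ratio (MatDp(dist2) over PatDp(dist2)) among the measured probe sets of each of 1940 genes with at least 3 such probe sets, with bounds used where 1 array lay below the floor. The vertical lines mark Cnp at 1.42 and Mbp at 2.66, against a median over genes of 0.55 (dashed).

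Cnp, the 2',3'-cyclic nucleotide phosphodiesterase of oligodendrocytes and Schwann cells, showed the same kind of split on its 3 probe sets. The brightest, 1437341_x_at, had 1083 in MatDp(dist2) and 2278 in PatDp(dist2), 2.10-fold. Probe set 1418980_a_at had 493 and 735, or 1.49-fold in the same direction. The dimmest, 1449296_a_at, had 343 and 270.5, which is 1.27-fold higher in MatDp(dist2). The opposite directions of this probe set and of Mbp 1425264_s_at held under each scaling tried. The range of the log2 ratio was 1.42, and 3.45% of the 1940 genes had one at least as wide. For Mbp as for Cnp, the probe set with the highest mean signal gave the largest fold of those measured on both arrays, and the one that pointed to MatDp(dist2) was dimmer.

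Mag, an adhesion protein of the membrane facing the axon in both kinds of myelin, had a single probe set with 205 in MatDp(dist2) and 330.4 in PatDp(dist2). This is 1.61-fold, below the 2-fold threshold and not far above the floor.

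The 2 proteins of central myelin alone were too dim to compare. Mog, a glycoprotein of the outermost layer of the central sheath, gave 2.3 and 2.7 in the MatDp(dist2) and PatDp(dist2) heads. Mobp, a small basic protein of central myelin, had 155 and 87.3 on its brightest probe set. Its other 4 probe sets lay between 3.2 and 6.6 in MatDp(dist2) and between 4.3 and 10 in PatDp(dist2). Mobp is the only one of the 8 genes on Chr 9 and none lies on Chr 2. The labels do not place the breakpoint, so whether Mobp lies in the duplicated part was not analysed here, and at these signals no difference between the heads could be measured in either direction.

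Pmp22, a membrane protein of compact peripheral myelin that fibroblasts and other tissues also make, leaned towards PatDp(dist2). Its single probe set had 4324 in MatDp(dist2) and 5899 in PatDp(dist2), 1.36-fold. Fibroblast and nerve sheath markers, 8 genes led by collagens, differed by a median of 1.12-fold in the same direction, with a summed signal of 74702 against 82354 and none below the floor. Of the 8, 7 were higher in PatDp(dist2), but 4 under quantile normalization and under the loess fit. Their part in the Pmp22 signal was not tested.

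Sox10 was close between the heads. Probe set 1451689_a_at had 487 in MatDp(dist2) and 569 in PatDp(dist2), 1.17-fold. Probe set 1424985_a_at had 424 and 414, and its direction flipped under median centring, quantile normalization and the loess fit. The remaining probe set, 1425369_a_at, lay below the floor with 112.1 and 111.7. Markers of melanocytes, which also make Sox10, were higher in MatDp(dist2) in 5 of 6 measured genes. The summed signal over the 8 listed genes was 4230 against 2935, with Tyr and Mlana below the floor in both heads and none at 0. Pmel, a melanosome matrix protein, had 828 and 337.5, Dct, an enzyme of melanin synthesis, 748 and 327, and Slc45a2, a melanosome transporter, 404 and 289. Whether these marker signals came from cells that make Sox10 was not tested, nor was their part in the Sox10 signal.

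**Figure D3:**
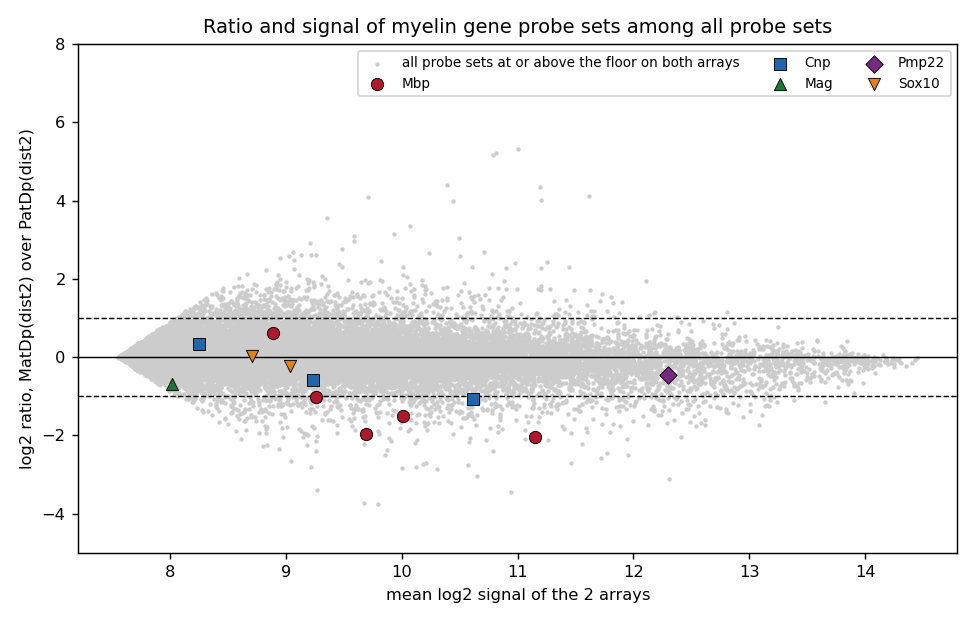
Log2 ratio of the MatDp(dist2) over the PatDp(dist2) signal against the mean log2 signal of both arrays, for the 20780 probe sets that both arrays measured (grey) and the 12 member probe sets among them (coloured by gene), with dashed lines at 2-fold. Mbp probe sets at -2.04, -1.97 and -1.50 lie below the lower dashed line, while Pmp22 at -0.45 and Sox10 at -0.23 and 0.03 lie between the dashed lines.

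The background of large differences depended on signal. In the PatDp(dist2) direction it was 1.26% for probe sets measured on both arrays with a mean signal up to 447, 2.64% for those from there to 1005 and 4.94% for the brighter ones, in 3 groups of equal size. In the MatDp(dist2) direction it was 3.49%, 4.72% and 2.61%. The brightest probe sets of Mbp and Cnp fall in the brightest of these groups.

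A wider list of 24 genes of central myelin and mature oligodendrocytes, with Mbp, Cnp and Mag among its measured genes, was also mostly higher in PatDp(dist2). Gene lists use the brightest probe set of each gene. Of the 24 genes, 20 were on the arrays under 1 symbol and 10 were measured. Of the 10, 9 were higher in PatDp(dist2), 3 of them at least 2-fold, and 1 was higher in MatDp(dist2). Across all 12481 measured genes, 48.0% were higher in PatDp(dist2) by any amount. At least 2-fold, 3.47% were higher in PatDp(dist2) and 4.43% in MatDp(dist2), and the median log2 ratio was 0.02. The list's median was -0.72. Besides Mbp and Cnp, Aspa, which breaks down N-acetylaspartate in oligodendrocytes, passed 2-fold with 192 and 508. Mal, a proteolipid of myelin and of epithelia, had 448 and 850.5, and Bcas1, made in oligodendrocytes that are starting to myelinate, had 441.5 and 737. Both lie on Chr 2, as does Gsn, an actin-severing protein, with 4568 and 6398.5, and whether they lie in its duplicated part was not analysed here. Cldn11, the tight junction protein of central myelin, was the exception, with 802.5 in MatDp(dist2) and 430 in PatDp(dist2), 1.87-fold. The 10 genes below the floor in both heads included Mog, Mobp, Opalin (77.8 and 65.9), a late oligodendrocyte membrane protein, and Myrf (69.6 and 26.8), the transcription factor of oligodendrocyte maturation. In these dim signals Mobp, Opalin, Myrf, Gpr37, Ermn, Enpp6 and Tmem125 were higher in MatDp(dist2), and Mog, Nkx6-2 and Omg in PatDp(dist2). With the floor at the 30th percentile, which lets some of them in, the list's median was -0.24.

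Genes of peripheral myelin and Schwann cells were divided. Of 23 listed genes 16 were measured, and 11 were higher in PatDp(dist2), 3 of them at least 2-fold, against 5 in MatDp(dist2), 1 of them at least 2-fold. Under quantile normalization 5 rather than 3 were at least 2-fold higher in PatDp(dist2), and Foxd3 changed direction there and under the loess fit. The list's median log2 ratio was -0.31. Art3, an ADP-ribosyltransferase family gene, had 788 and 2703, a 3.43-fold difference, and S100b, a calcium-binding protein of Schwann cells, astrocytes and cartilage, had 511 and 1292, or 2.53-fold. Pou3f1, the transcription factor of Schwann cells that are about to myelinate and of some neurons and skin cells, went the other way with 552 in MatDp(dist2) and 245 in PatDp(dist2), 2.26-fold. Egr2, the transcription factor that drives peripheral myelination, had 167.5, below the floor, and 237. Pmp2, a fatty acid-binding protein of peripheral myelin, lay below the floor with 9 and 107.4. Other genes of the lineage differed by less than 2-fold in either direction. The neuregulin receptor Erbb3 had 1188 and 1275, the cadherin Cdh19 225 and 252, the crest factor Foxd3 229 and 218.5, and the neurotrophin receptor Ngfr 767 and 621. The sodium channel gene Scn7a, which lies on Chr 2, had 239 and 430, and Plekha4 had 243 and 432.

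The central list lay lower than the peripheral list by 0.41 in median log2 ratio, but the order was not stable. With the floor lowered to the 30th percentile the difference was 0.15 in the other direction, and the lists share Mbp and Mal. With the 8 genes of this set left out, the medians were -0.49 over 7 central and -0.22 over 14 peripheral genes. The members alone give no such contrast, because neither Mog nor Mobp was measured and Pmp22 is the only peripheral gene with a value.

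Oligodendrocyte precursor genes were not displaced in the same direction. Of 9 measured, 3 were higher in PatDp(dist2) and 6 in MatDp(dist2), 0 by 2-fold in either direction, with a median log2 ratio of 0.05. Pdgfra, the growth factor receptor of these precursors and of mesenchyme, had 3588 and 3459. Olig1, a factor of the oligodendrocyte lineage, had 831 and 751, and Olig2, its partner, had 187.5, at the floor, and 90.4. Nkx2-2, a homeodomain factor of the lineage, lay on Chr 2 and below the floor, with 148.5 and 54.8. The largest differences were those of Ptprz1, a receptor phosphatase of precursors and radial glia (2731 and 1430), the proteoglycan Cspg4 (495 and 726), which lies on Chr 9, and the receptor Gpr17 (244 and 294).

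**Figure D4:**
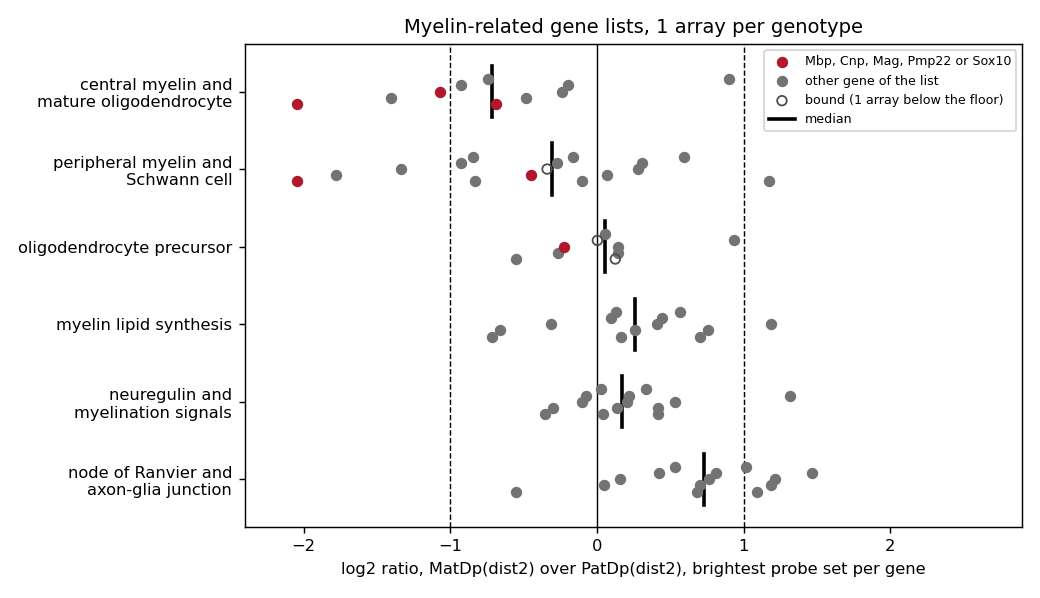
Log2 ratio of the MatDp(dist2) over the PatDp(dist2) signal for each measured gene of 6 lists, by its brightest probe set, with 1 array per genotype. Medians (black bars) run from -0.72 for the central myelin list and -0.31 for the peripheral list to 0.73 for the list of the node of Ranvier, and dashed lines mark 2-fold.

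Enzymes of myelin lipids and sterols were also divided. Of 13 measured genes, 10 were higher in MatDp(dist2), 1 by at least 2-fold, and 3 in PatDp(dist2), with a median log2 ratio of 0.26. Ugt8a, which makes galactosylceramide, had 216 and 355, Fa2h, which hydroxylates its fatty acids, had 234 and 370, and Cers2, a ceramide synthase for very long chains, had 1668 and 2075. These 3 were the ones higher in PatDp(dist2). The sterol enzymes went the other way, with 2931 and 1288 for Sqle, the squalene epoxidase, and 745 and 440 for Sc5d, which lies on Chr 9. Gal3st1 (211 and 193), Elovl1 (1427 and 1339) and Elovl7 (406 and 298) were also higher in MatDp(dist2). Under quantile normalization Gal3st1 changed direction, which made the counts 9 in MatDp(dist2) and 4 in PatDp(dist2). Sterol synthesis serves all growing cells and is not specific to myelin.

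Most measured genes of myelination signals, and of the node of Ranvier and the axon-glia junction, did not share the direction of Mbp. Of 14 measured genes of the neuregulin and related pathways, 10 were higher in MatDp(dist2) and 1 of these passed 2-fold, and their median log2 ratio was 0.17. Yy1 and Bace1, close to equal in the heads, changed direction under some scalings. Tcf7l2, a Wnt effector of differentiating oligodendrocytes and of thalamic neurons, had 1364 and 547, Lingo1, an inhibitor of myelination on Chr 9, 422 and 292, and Hdac2, a histone deacetylase, 4703.5 and 3523. Of 14 measured genes of the node of Ranvier and the axon-glia junction, 13 were higher in MatDp(dist2), 5 by at least 2-fold and 0 at least 2-fold in the other direction, with a median of 0.73. Under median centring, quantile normalization and the loess fit 4 rather than 5 passed 2-fold. Cntn2, an axonal adhesion protein of the juxtaparanode, had 523 and 189.5, Nfasc, which clusters sodium channels at the node, 845 and 365, and the adhesion protein Cadm4 1627 and 715. The potassium channel Kcna1 was the 1 gene of this list that was higher in PatDp(dist2), with 264.5 and 388, joined by Kcna2 under quantile normalization.

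Markers of neurons and of regions differed between the heads to varying degrees, where 48.0% of all measured genes were higher in PatDp(dist2). Of 8 axon genes all were measured, 5 were higher in MatDp(dist2) and the other 3 in PatDp(dist2), while the summed signals were 24729 and 16846, with no marker at 0. Tubb3, a neuronal tubulin, had 2853 and 775, while the neurofilament genes of large axons, Nefl (3037 and 4339), Nefm (1735 and 2259) and Nefh (443 and 628.5), were the 3 with the direction of Mbp. Among peripheral neuron genes, 4 of 7 measured were higher in PatDp(dist2), not far from the share over all genes. Their summed signal over the 9 on the arrays was 2865 against 3416. The 4 included the peripheral intermediate filament Prph with 480 and 942. Avil, an actin regulator of sensory neurons, was another, with 161, below the floor, and 390, at least 2.08-fold. The other 3, Isl1 (879 and 600), Pou4f1 (324 and 260) and Scn9a (294 and 232), the last on Chr 2, were higher in MatDp(dist2) by less than 2-fold. Of 6 listed forebrain genes 4 were measured, all higher in MatDp(dist2), with summed signals of 4540 and 342, or 3 of 3 under quantile normalization. Neurod2 had 1184 and 206. In PatDp(dist2), Emx1 (198 and 38.2), Neurod6 (2752 and 90.1) and Tbr1 (406.5 and 8), which lies on Chr 2, were below the floor. Emx1 barely reached the floor in MatDp(dist2). Hox genes of hindbrain, cord and trunk were higher in PatDp(dist2) in 6 of 6 measured, with 2103 and 3280.5 over the 9 listed. Muscle genes were higher in PatDp(dist2) in 8 of 8, or 7 of 8 under quantile normalization and the loess fit, with 84345 and 108870 as summed signals. Of these, 2 passed 2-fold, Mb with 224 and 2983, or 13.3-fold, and Actn3 with 2670 and 6305, or 2.36-fold. Astrocyte genes were higher in MatDp(dist2) in 5 of 7 measured, with 23146 and 19756. The only astrocyte gene past 2-fold in the deposited values, Aqp4, was higher in PatDp(dist2), with 737.5 and 1621. Epidermal genes were higher in MatDp(dist2) in 6 of 6, with 44837 and 6222. Of the lymphocyte genes only Ptprc, a surface phosphatase of white blood cells, was measured, with 298 and 474. The part of these markers in the Mbp and Cnp differences was not tested, and genotype, animal and the tissue taken cannot be told apart with 1 array each.

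Over the 133 other measured genes of these lists, those with a log2 ratio nearest to that of the brightest Mbp probe set, -2.04, were Art3 at -1.78, Aspa at -1.40 and S100b at -1.34. With 2 arrays the ratio is the whole pattern, so likeness here says only that the folds were of similar size.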

How the data were processed

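RNA from newborn heads of 2 genotypes, 1 array per genotype, was analysed. The deposited values are signal intensities on a linear scale. They were made by the authors with MAS5 and GCOS, per the submitters' processing notes. No versions are named. Both arrays have the same trimmed mean of 500.002 once 2% of probe sets is trimmed from either end, so a scaling by the authors is part of the values. MAS5 signals are noisy when dim, detection calls were not used here, and the floor of 187 took their place. It is the middle of the 2 arrays' 50th percentiles, over all but the 64 control probe sets.

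Probe sets were named by the platform annotation, updated by gene ID through RefSeq (GRCm38.p6). Of 45037 probe sets, 34945 had 1 symbol, 932 several and 9160 none listed. Log2 ratios were computed in Python 3.11.15 with pandas 2.3.3, without offset. Where 1 array lay below the floor, the ratio is a bound against the floor ("at least N-fold"), and where both did, none is given. In lists each gene is its brightest probe set. No p-value was computed, because each group has 1 array, whose number limits the precision. The arithmetic of the folds, bounds and scalings was checked on simulated data without noise, which says nothing about the precision of dim signals. The members and lists were chosen with earlier results of these data known. Named genes were all member probe sets, a fixed set of lineage genes and, for most lists, the 3 largest differences. Some or all of these 3 were not named for the axon, fibroblast, astrocyte, muscle, Hox and epidermal lists. A few other genes were named after their values were seen. Alternatives changed the floor, scaling, offset, threshold and probe set choice.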

Additional observations from a re-analysis of the deposited data

How the results depend on the processing

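No paired analysis was possible because each genotype has 1 array. The 6 member probe sets at least 2-fold higher in PatDp(dist2) became 2 at a 3-fold threshold, and the 0 in the other direction became 1 at 1.5-fold. Under the other 6 alternatives of floor, scaling and offset the first count stayed between 4 and 6 and the second at 0. The median log2 ratio of the members, -0.63, was -0.45 with a lower floor (30th percentile), -0.91 with a higher one (70th), -0.78 with quantile normalization, -0.73 with the loess fit, -0.50 with an offset of 100 and -0.45 without Mbp, an alternative chosen after seeing the data. The central list's median, -0.72, was -0.24 and -0.49 with the lower and higher floor, -0.86 with quantile normalization, -0.82 with the loess fit, -0.56 with the offset, -0.48 with the mean over probe sets, and -0.59 without Mbp and Mal, also chosen after seeing the data. The peripheral list's median moved by less than 0.1 under each alternative. The difference between the lists, -0.41, reversed to 0.15 with the lower floor, and was -0.21 with the higher floor and -0.21 with the mean over probe sets. Other floors change which dim genes are counted. The cause of the other shifts was not tested. No member probe set past 2-fold changed direction under any alternative that gave it a value. Signals near the floor, as for Mag and 1451961_a_at, carry the least weight.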
